A study of Homo sapiens with 6 samples.

Results

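A set of 10 genes of iron handling and of the defence against ferroptosis was followed in DBTRG, an established human glioblastoma cell line of labelled genotype WT. They were GPX1, GPX3, GPX4, ACSL4, FTH1, FTL, TFRC, SLC40A1, SLC11A2 and NCOA4, that is 10 of the 58884 genes in the deposited table, matched by gene symbol. Cells were grown for 5 days in a soft gel (3D) or on a rigid dish (2D), and RNA was sequenced from 3 libraries per condition, numbered 1 to 3. Both groups were otherwise of the same line and genotype, no gel composition or stiffness is given in the sources used here, and a single line stands for the tumour. Whether the 3 libraries of a group came from separate cultures is not labelled, and the spread behind each p-value may therefore be technical.

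Iron enters cells bound to transferrin through the transferrin receptor (TFRC) and leaves the endosome through the transporter DMT1 (SLC11A2). Surplus iron is stored inside ferritin, a shell of heavy (FTH1) and light (FTL) chains that NCOA4 delivers to lysosomes for breakdown, and it is exported by ferroportin (SLC40A1). Free iron drives the peroxidation of membrane lipids, which in excess kills cells by ferroptosis. ACSL4 loads polyunsaturated fatty acids into those lipids, and the selenoenzyme GPX4 reduces the lipid peroxides, while GPX1 and the secreted GPX3 act mainly on other peroxides. Iron regulatory proteins bind RNA hairpins called iron-responsive elements. In the 5' untranslated region such a hairpin is known to control translation, and in the 3' untranslated region of TFRC its binding protects the mRNA from decay, so some of this control acts on proteins and cannot be seen in RNA counts.

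The hairpins are shown because they set apart, by their place in the transcript, the ferritin chains and the exporter from the uptake receptor TFRC. GENCODE 29 transcripts (hg38) were searched in their untranslated regions for a bulged C, 5 bases, the loop letters CAGTGN with a last base other than G, and 5 bases that pair with the first 5, G-T pairs included. A site of this kind was present in 0.785% of the 20371 genes with a coding transcript. Among the 10 genes they were found in FTH1, FTL, SLC40A1 and TFRC. Each is given as 30 bases with the loop in capitals.
FTH1, 5' untranslated region, chr11:61967573-61967602, minus strand: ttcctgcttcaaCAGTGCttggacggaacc
FTL, 5' untranslated region, chr19:48965335-48965364, plus strand: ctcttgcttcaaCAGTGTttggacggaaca
SLC40A1, 5' untranslated region, chr2:189580660-189580689, minus strand: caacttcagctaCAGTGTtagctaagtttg
TFRC, 3' untranslated region, chr3:196050978-196051007, minus strand: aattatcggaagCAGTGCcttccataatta
TFRC, 3' untranslated region, chr3:196050574-196050603, minus strand: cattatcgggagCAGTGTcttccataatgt
TFRC, 3' untranslated region, chr3:196050509-196050538, minus strand: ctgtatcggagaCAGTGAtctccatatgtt
TFRC, 3' untranslated region, chr3:196050462-196050491, minus strand: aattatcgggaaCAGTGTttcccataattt
The sites of the ferritin chains were identical at 26 of 30 positions. A site was held by 9 of 10 coding transcripts of FTH1, 1 of 1 for FTL, 1 of 5 for SLC40A1 and 3 of 5 for TFRC, and the gene counts do not tell transcripts apart. No match was found in the 25 coding transcripts of SLC11A2, which says only that these letters are not there.

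The 3 glutathione peroxidases share another feature in their coding sequence, an in-frame TGA codon that is read as selenocysteine at the active site. It lay at codon 49 of GPX1 and at codon 73 of both GPX3 and GPX4, counted from the start codon of the GENCODE 29 principal transcript. Each is shown within 51 coding bases, TGA in capitals.
GPX1, chr3:49358108-49358158, minus strand: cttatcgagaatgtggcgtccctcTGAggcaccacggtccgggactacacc
GPX3, chr5:151025445-151026901, plus strand, across an intron: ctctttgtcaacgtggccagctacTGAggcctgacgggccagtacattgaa
GPX4, chr19:1105379-1105429, plus strand: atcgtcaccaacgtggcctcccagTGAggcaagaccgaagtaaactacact

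Library totals ran from 20911363 to 24135884 counts in soft gel and from 23944278 to 25901499 on the rigid dish. Of 12 glial and glioma markers, the cells carried RNA of VIM, CD44, NES, SOX2 and FABP7 among others. OLIG2 had 0 counts, and GFAP stayed between 0.314 and 1.58 CPM (counts scaled to library size with TMM factors) over the 6 libraries. S100B, AQP4 and SLC1A3 were low as well, reaching at most 1.44, 1.60 and 4.59 CPM in any library. RNA of the globin genes HBA1, HBA2 and HBB, which erythroid cells express, was present in 5 libraries. It summed to 260, 139.6 and 249 CPM in soft gel libraries 1 to 3, against 87.8, 0 and 38.4 CPM in rigid dish libraries 1 to 3. The other 6 of 9 erythroid markers, ALAS2 among them, summed to at most 0.329 CPM in any library. Of 10 macrophage and microglia markers, the summed level was 41.2 to 48.3 CPM in soft gel and 11.5 to 16.4 CPM on the rigid dish. Most of it came from the lysosomal protein gene CD68, and PTPRC stayed at or below 0.576 CPM. The part of these genes in the results below was not tested.

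In deposited TPM, which is scaled to gene length and so allows genes to be compared, FTH1 was highest in both groups, at 3041 ± 198 in soft gel and 2156 ± 646 on the rigid dish (SD, n = 3 each, as throughout). In soft gel it was followed by FTL (833 ± 34.5 TPM), GPX1 (623 ± 38.2), GPX4 (514 ± 49.4) and TFRC (150.3 ± 3.49), and neighbours in this order did not overlap in any library. On the rigid dish GPX1 (595 ± 75.7 TPM), GPX4 (494 ± 76.6) and FTL (463 ± 86.6) overlapped, and TFRC followed at 74.8 ± 20.3. NCOA4, ACSL4 and SLC11A2 overlapped one another in order in both groups, at 39.5 to 46.4 TPM in soft gel and 28.99 to 37.7 TPM on the rigid dish (means). GPX3 (6.95 ± 2.05 in soft gel, 3.10 ± 0.692 on the rigid dish) and SLC40A1 (2.74 ± 0.0900 and 1.40 ± 0.573 TPM in the same order) were lowest. FTL thus ranked above GPX1 and GPX4 in soft gel. On the rigid dish its range overlapped theirs, but within each library FTL lay below both.

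**Figure D1:**
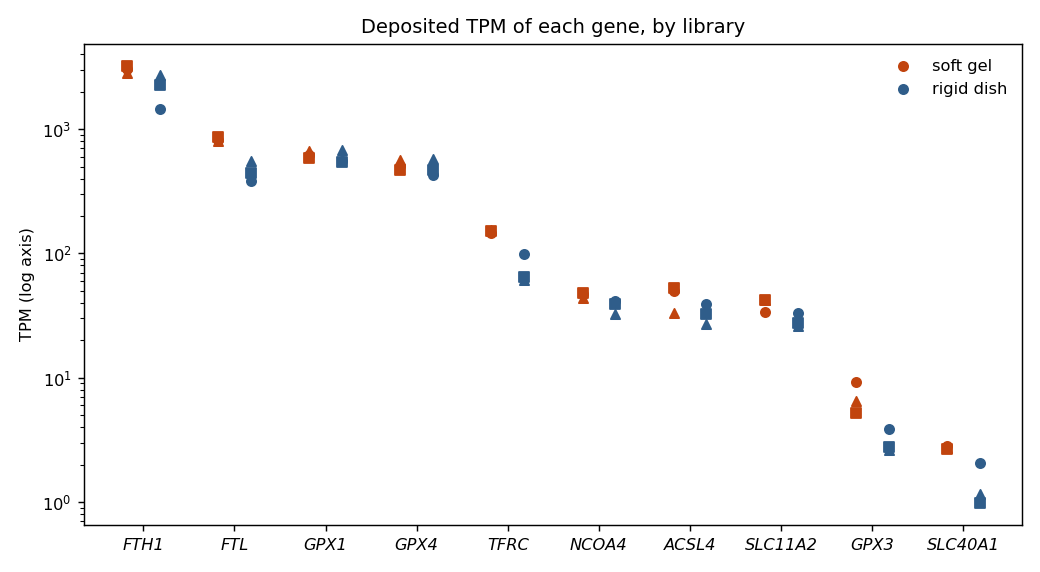
Deposited TPM (log axis) of each gene in soft gel and rigid dish libraries, with circles, squares and triangles for replicates 1, 2 and 3. FTH1 lies highest in both groups, up to 3231 TPM, and SLC40A1 lowest, between 0.98 and 2.83 TPM.

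Soft gel cells held more RNA than rigid dish cells of the transferrin receptor TFRC (1.92-fold), the ferritin light chain FTL (1.68-fold), the iron exporter SLC40A1 (2.46-fold) and the secreted peroxidase GPX3 (2.06-fold). The more abundant ferritin chain FTH1, the transporter SLC11A2, NCOA4, ACSL4 and the intracellular peroxidases GPX1 and GPX4 did not pass the test. By edgeR's quasi-likelihood test with Benjamini-Hochberg adjustment over 16098 genes, 4 of the 10 genes were higher in soft gel and 0 were lower. Over all genes tested, 15.4% were called higher and 13.2% lower. At an unadjusted p below 0.05, 6 of the 10 were higher and 0 lower, against 23.4% and 19.6% of all genes tested. DESeq2 called 4 higher and 0 lower, against 13.2% and 15.5% of the genes to which it gave an adjusted p. The groups did not overlap for 6 of the 10, each with soft gel above, against 23.5% of all genes tested. All 10 genes passed the filter on low counts, the lowest count in any library being 42. The median log2 fold change was 0.42 over the 10 genes and 0.05 over all genes tested. In bulk RNA, a change in the number of cells that express a gene and a change of its RNA per cell cannot be told apart. Without soft gel 1, only TFRC and SLC40A1 of these 4 were called, so the count was 2, since FTL and GPX3 both came to an adjusted p of 0.0506. In that fit 6.67% of all genes tested were called higher.

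**Figure D2:**
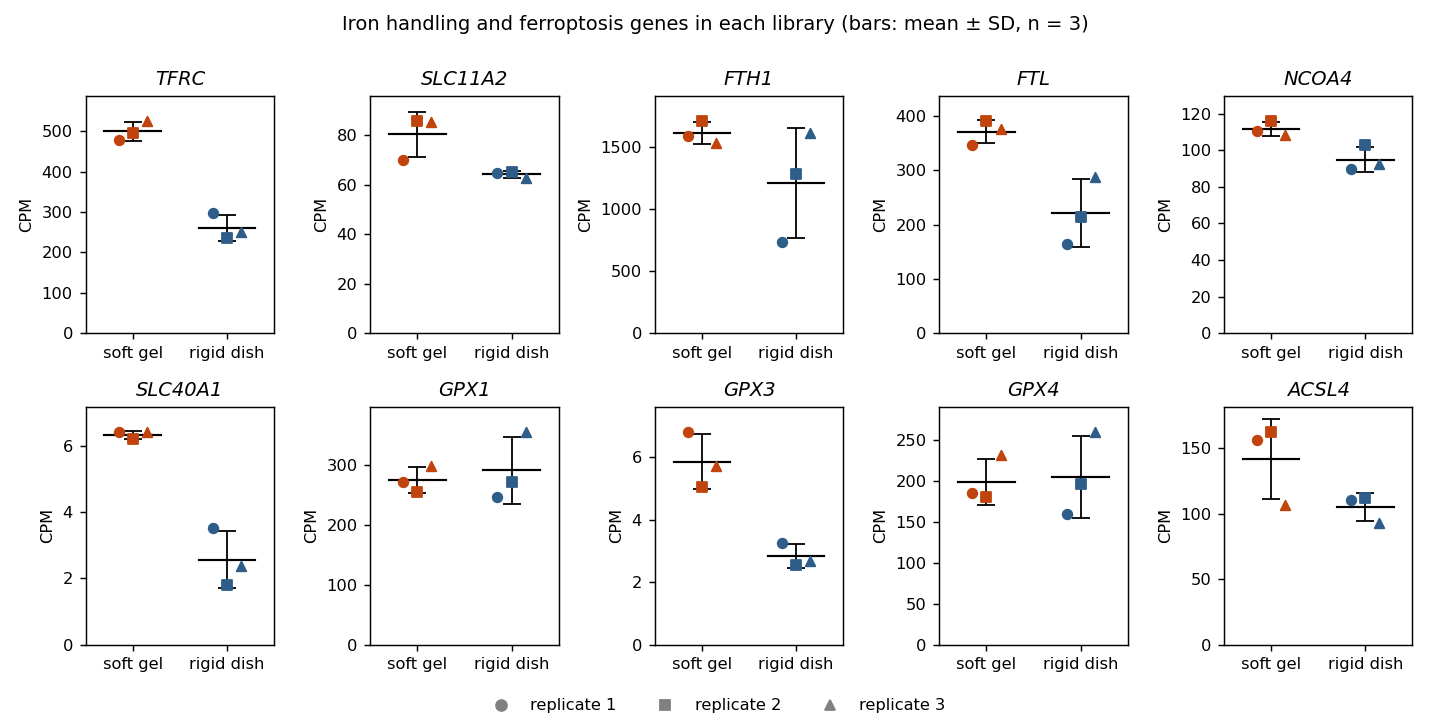
CPM after TMM scaling of each gene in soft gel and rigid dish libraries; points are libraries, shaped by replicate number, and bars are the mean ± SD (n = 3). All soft gel libraries lie above all rigid dish libraries for TFRC, SLC11A2, FTL, NCOA4, SLC40A1 and GPX3, while GPX1, GPX4, ACSL4 and FTH1 overlap.

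TFRC, the receptor that takes up iron-loaded transferrin, had 478, 495 and 525 CPM in soft gel libraries 1 to 3, against 297, 235 and 249.6 CPM in rigid dish libraries 1 to 3. Every soft gel library lay above every rigid dish library, and rigid dish 1 was the highest of its group. The log2 fold change was 0.94 (SE 0.119, edgeR adjusted p = 0.00132). It stayed between 0.84 and 1.04 and was called under all 15 alternatives. The gene spans chromosome 3, 196027183 to 196082189 on the minus strand of hg38.

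SLC11A2 encodes DMT1, which moves iron out of the endosome into the cytosol. It had 69.8, 85.6 and 85.3 CPM in soft gel and 64.7, 65.2 and 62.5 CPM on the rigid dish. The groups did not overlap, but soft gel 1 lay close to the rigid dish libraries, and the difference did not pass (log2 fold change 0.32, SE 0.117, edgeR adjusted p = 0.0648).

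FTH1 encodes the ferritin heavy chain, which oxidises iron for storage. It had 1588, 1706 and 1532 CPM in soft gel and 734, 1283 and 1610.5 CPM on the rigid dish. The rigid dish libraries spread widely, and rigid dish 3 lay within the soft gel range. In deposited TPM, the groups did not overlap, soft gel 3 being the lowest of its group (2835 TPM) and rigid dish 3 the highest of its group (2742 TPM). The difference did not pass (log2 fold change 0.41, SE 0.237, edgeR adjusted p = 0.211), and without rigid dish 1 the log2 fold change was 0.15 (adjusted p = 0.344). FTH1 was the gene of the 10 whose deposited counts held decimals in all 6 libraries. The 25 annotated copies named FTH1P and a number held at most 36.2 counts in a library (soft gel 2). Their share of the counts of gene and copies was at most 0.0938% (soft gel 3), so little of the counted signal lay in them.

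FTL, the ferritin light chain, which helps form the iron core, had 347, 390.5 and 376 CPM in soft gel and 164, 213 and 288 CPM on the rigid dish. The groups did not overlap, and rigid dish 3 was the rigid dish library nearest to soft gel. The gene lies on chromosome 19, 48965301 to 48966878, plus strand. The log2 fold change was 0.74 (SE 0.184, edgeR adjusted p = 0.0177). It was no longer called when soft gel 1 (log2 fold change 0.79, adjusted p = 0.0506), soft gel 2 (0.71, 0.0734) or rigid dish 2 (0.71, 0.0726) was left out. The size of the difference changed little in those fits, in which 6.67%, 6.13% and 6.54% of all genes tested were called higher. FTH1 and FTL had the same order of the rigid dish libraries, lowest in rigid dish 1 and highest in rigid dish 3.

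Because both chains build 1 shell, their ratio was taken within each library. FTH1 to FTL in TPM was 3.75, 3.70 and 3.50 in soft gel libraries 1 to 3 and 3.80, 5.05 and 4.93 in rigid dish libraries 1 to 3. Every soft gel library lay below every rigid dish library, but rigid dish 1 lay next to soft gel 1. The means were 3.65 ± 0.130 and 4.60 ± 0.691 (log2 difference -0.32, exact permutation p = 0.1, two-sided, the smallest that 3 against 3 allows). Taken on counts the difference was -0.30 (exact permutation p = 0.2). TFRC to the sum of both ferritin chains in TPM was 0.0379, 0.0366 and 0.0422 in soft gel and 0.0532, 0.0238 and 0.0187 on the rigid dish. Rigid dish 1 lay above the soft gel libraries and the other rigid dish libraries below them, so the groups overlapped (log2 difference 0.44, exact permutation p = 0.4, two-sided). The log2 difference was 0.88 without rigid dish 1, 0.13 without rigid dish 3 and 0.30 without rigid dish 2. The 10 genes together took 0.338% ± 0.00798 of all counts in soft gel and 0.238% ± 0.0439 on the rigid dish (exact permutation p = 0.1, two-sided).

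**Figure D3:**
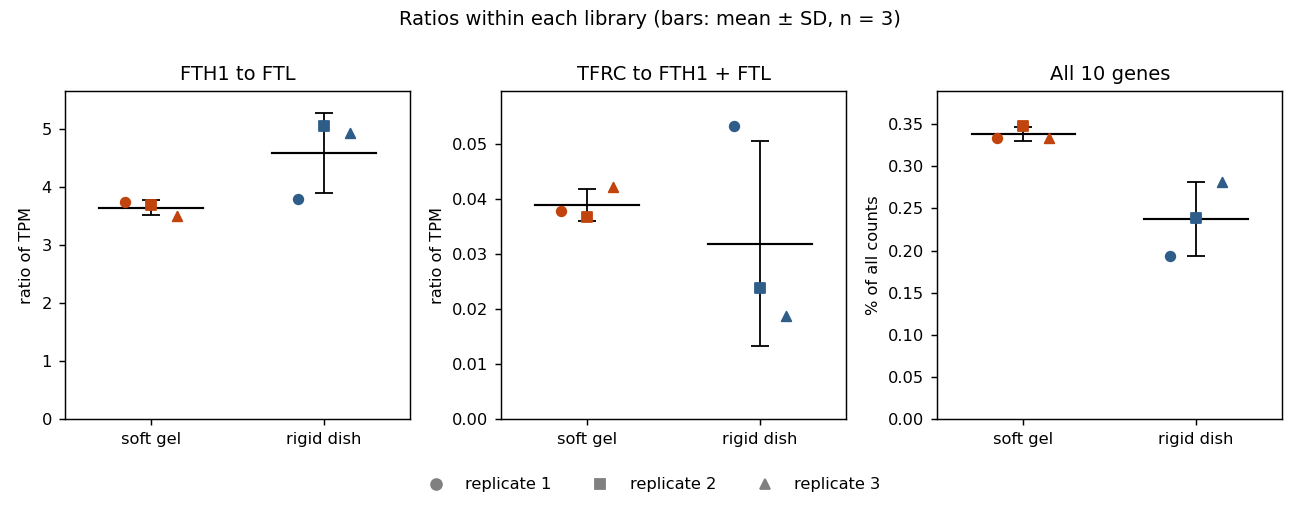
FTH1 to FTL in TPM, TFRC to the sum of FTH1 and FTL in TPM, and the share of all counts in the 10 genes, for soft gel and rigid dish libraries; points are libraries and bars the mean ± SD (n = 3). Soft gel libraries lie within 3.50 to 3.75 for the first ratio, and rigid dish 1 stands apart from rigid dish 2 and 3 in the first and second.

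NCOA4, the receptor that carries ferritin to autophagosomes, had 110.5, 116 and 109 CPM in soft gel and 89.7, 103 and 92.3 CPM on the rigid dish. The groups did not overlap, but the difference was small and did not pass (log2 fold change 0.23, SE 0.106, edgeR adjusted p = 0.122).

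SLC40A1 encodes ferroportin, the cellular iron exporter. It had 6.42, 6.21 and 6.43 CPM in soft gel, from 137 to 156 counts, and 3.52, 1.81 and 2.37 CPM on the rigid dish, from 42 to 94 counts. The soft gel libraries were nearly equal and all above the rigid dish libraries. The gene lies on chromosome 2, 189560579 to 189583758, minus strand. The log2 fold change was 1.30 (SE 0.257, edgeR adjusted p = 0.00734), and on leaving out 1 library it ran from 1.10 to 1.59 with every call kept. On the scale of log2(TPM + 1) the difference was 0.67 and did not pass (limma adjusted p = 0.0647), and with a pseudocount of 0.1 it was 0.99 (0.0820).

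GPX3, a glutathione peroxidase that cells secrete, had 6.79, 5.03 and 5.72 CPM in soft gel and 3.26, 2.54 and 2.69 CPM on the rigid dish. The groups did not overlap. The log2 fold change was 1.04 (SE 0.216, edgeR adjusted p = 0.00877), and without soft gel 1, its highest library, the value was 0.92 (adjusted p = 0.0506). The gene lies on chromosome 5, 151020438 to 151028993, plus strand. These libraries held 122 to 165 counts in soft gel and 59 to 87 on the rigid dish.

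GPX4, the peroxidase that repairs lipid peroxides in membranes, had 185, 180.2 and 231 CPM in soft gel and 159.9, 196 and 259 CPM on the rigid dish. In both groups library 3 was the highest, and the groups overlapped over most of their range. The log2 fold change was -0.05 (SE 0.180, edgeR adjusted p = 0.868), with a positive sign on the TPM scale (0.06). GPX1, the abundant cytosolic and mitochondrial peroxidase, had 272, 256 and 298 CPM in soft gel and 248, 273 and 355 CPM on the rigid dish. Its groups overlapped too (log2 fold change -0.08, SE 0.146, edgeR adjusted p = 0.693, and 0.07 on the TPM scale). A p that misses the threshold does not show that the levels were equal. A comparison of this size was simulated over 16098 genes, of which 200 were changed. In it edgeR called a 1.5-fold change for 13% of the genes given one and a 2-fold change for 67%. In the data 28.6% of all genes tested were called, and the adjustment of p depends on that share. These percentages therefore cannot be carried over to the fit on the data.

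ACSL4, the enzyme that activates polyunsaturated fatty acids for membrane lipids, had 156, 162 and 106 CPM in soft gel and 110.2, 112 and 92.5 CPM on the rigid dish. Soft gel 1 and soft gel 2 lay above all rigid dish libraries, whereas soft gel 3 lay among them. The difference did not pass (log2 fold change 0.43, SE 0.167, edgeR adjusted p = 0.0782), and without soft gel 3 it was 0.54 (adjusted p = 0.0143). It did not pass on leaving out any other library. Those log2 fold changes ran from 0.28 without rigid dish 3 (edgeR adjusted p = 0.302) to 0.48 without rigid dish 2 (0.149). In the authors' deposited table, the adjusted p was likewise below 0.05 for TFRC (log2 fold change 0.85, adjusted p = 1.22e-08), SLC40A1 (1.09, 0.000377), FTL (0.65, 0.00199) and GPX3 (0.88, 0.00305), and 0.0882 or more for the other 6.

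**Figure D4:**
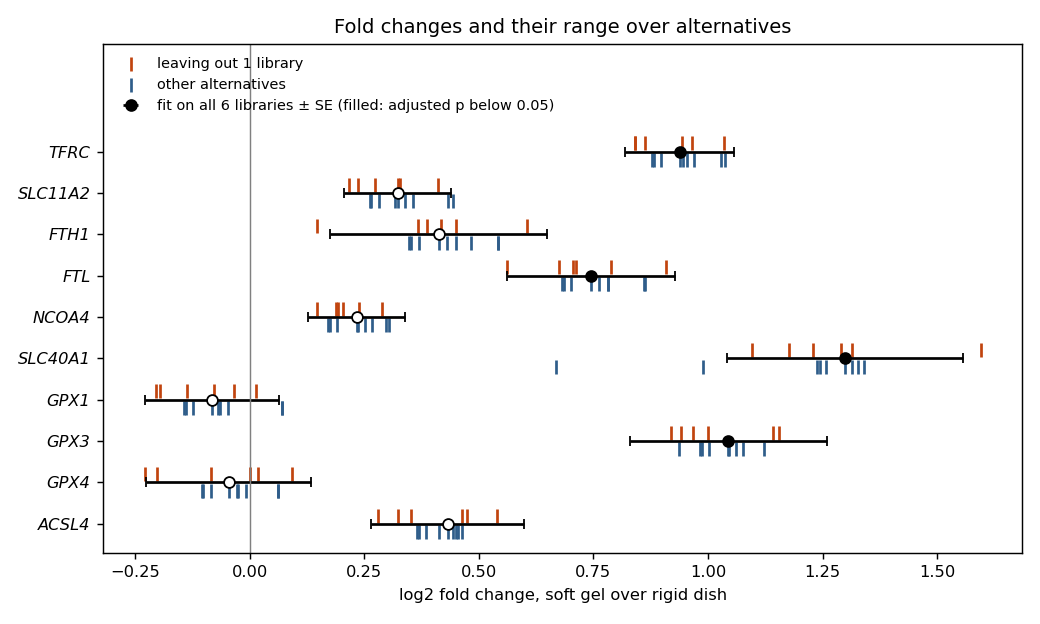
log2 fold change, soft gel over rigid dish, of each gene in the edgeR fit on all 6 libraries ± SE, filled where the adjusted p was below 0.05, with ticks above the point for fits that left out 1 library and below it for the other alternatives. TFRC, FTL, SLC40A1 and GPX3 are filled, and the ticks of GPX1 and GPX4 lie on both sides of 0.

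In all, 8 lists of related genes were counted in the same fit, in which 28.6% of all genes tested were called. Over the lists, leaving out soft gel 1, soft gel 2 or rigid dish 2 reduced the genes called higher to 5, 6 or 6 (22 with all libraries) and those called lower to 4, 3 or 6 (20 with all libraries). Calls over all genes tested were also fewer in these fits, with 6.67%, 6.13% and 6.54% higher (15.4% with all libraries) and 5.25%, 4.86% and 5.62% lower (13.2% with all libraries). Without rigid dish 3, 10 list genes were called higher (8.22% of all genes tested), and without rigid dish 1, 37 were called lower (17.7% of all genes tested). In the list of iron import, export and regulation, 5 of 18 tested genes were higher and 2 lower, with a median log2 fold change of 0.28 (0 to 7 higher and 0 to 4 lower on leaving out 1 library). FLVCR1, a heme exporter, averaged 22.8 ± 1.72 CPM in soft gel and 15.2 ± 1.497 CPM on the rigid dish (log2 fold change 0.59, edgeR adjusted p = 0.0150). SLC39A8, a transporter of zinc, manganese and iron (0.51), and CYBRD1, a ferric reductase (0.50), were also higher. The metal transporter SLC39A14 (-0.47) and PCBP2, an RNA-binding protein that also delivers iron (-0.39), were lower. The RNAs of the iron regulatory proteins did not pass, with log2 fold changes of 0.24 for ACO1 (edgeR adjusted p = 0.143) and 0.43 for IREB2 (0.0669). FBXL5, which targets IREB2 protein for degradation, did not pass either (-0.23, edgeR adjusted p = 0.138). These 3 were named after their values were seen, for their role.

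Of 30 heme and iron-sulfur genes, 5 were higher and 3 lower (median log2 fold change -0.10), with 1 to 5 higher and 0 to 6 lower on leaving out 1 library. Of all genes tested, 15.4% were higher and 13.2% lower, with 6.13% to 19.6% and 4.86% to 17.7% on leaving out 1 library. HMOX1, the inducible heme oxygenase that frees iron from heme, averaged 76.5 ± 12.5 CPM in soft gel and 39.2 ± 15.7 CPM on the rigid dish (log2 fold change 0.97, edgeR adjusted p = 0.0296). Its constitutive relative HMOX2 was lower (-0.56), as was the glutaredoxin GLRX5 of iron-sulfur assembly (-0.57). CISD1, an iron-sulfur protein of the outer mitochondrial membrane (0.67), and the scaffold ISCU (0.51) were higher. Among 14 autophagy genes linked to ferritin turnover, 2 were higher and 1 lower (0 to 2 and 0 to 4 on leaving out 1 library). GABARAPL1 (0.49) and RB1CC1 (0.88, groups overlapping) were higher, and ATG7 was lower (-0.54).

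**Figure D5:**
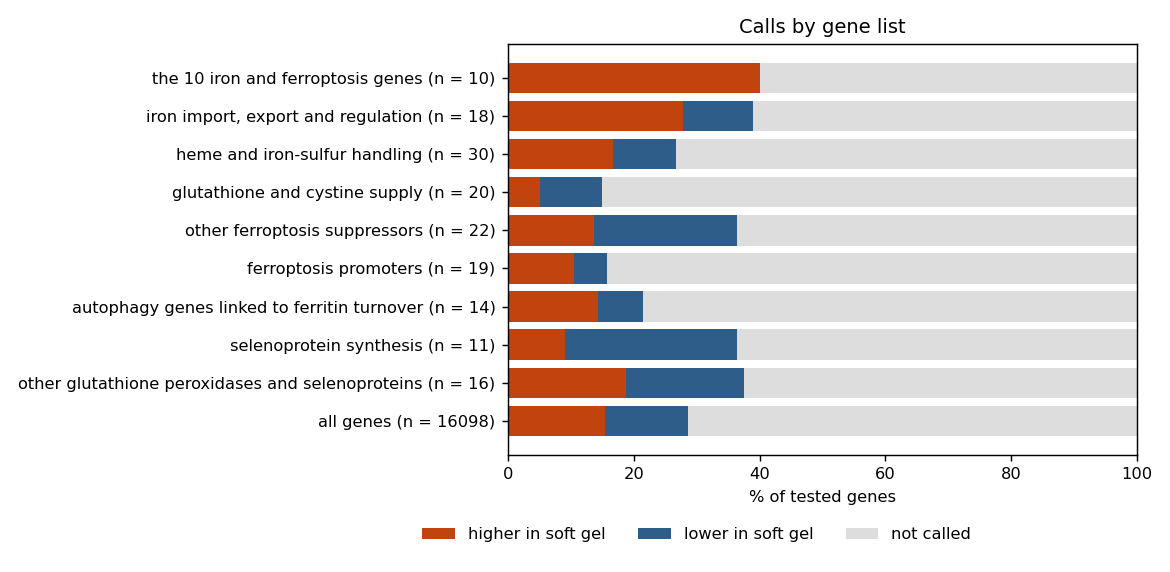
Share of tested genes called higher in soft gel, lower in soft gel or not called (edgeR adjusted p below 0.05), for the 10 iron and ferroptosis genes, 8 related lists and all genes; n is the number of genes tested. Genes called in both directions occur in each of the 8 lists. Of the 10 genes, 4 are higher and 0 lower, against 15.4% and 13.2% of all genes tested.

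Of 20 tested genes of glutathione and cystine supply and their regulators, 1 was higher and 2 lower (median log2 fold change -0.06), with 0 to 2 higher and 0 to 7 lower on leaving out 1 library. The shares over all genes tested were 15.4% higher and 13.2% lower. Glutathione reductase, GSR, averaged 136 ± 7.18 CPM in soft gel and 104 ± 3.24 CPM on the rigid dish (log2 fold change 0.38, edgeR adjusted p = 0.0227). The glutamine transporter SLC1A5 (-1.35) and CBS of cysteine synthesis (-1.06) were lower, with overlapping groups. SLC7A11, the cystine importer on which glutathione synthesis depends, did not pass, at 108 CPM in soft gel and 79.9 CPM on the rigid dish on average (log2 fold change 0.44, SE 0.350, edgeR adjusted p = 0.361). It was named after its value was seen.

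Against 15.4% higher and 13.2% lower over all genes tested, 3 of 22 other suppressors of ferroptosis were higher and 5 lower. On leaving out 1 library, these counts were 3 to 4 and 2 to 7. The 3 higher were the aldo-keto reductases AKR1C1 (log2 fold change 4.48), AKR1C2 (2.38) and AKR1C3 (1.61), which reduce aldehydes formed from lipid peroxides. They belong to 1 gene family, reads may have been shared among its members, and the level of each is uncertain. SREBF1, a regulator of lipid synthesis (-1.33), the small heat shock protein gene HSPB1 (-0.96) and DHODH of pyrimidine synthesis (-0.60) were lower. AIFM2, or FSP1, which regenerates ubiquinol as a defence beside GPX4, did not pass (-0.22, edgeR adjusted p = 0.362, named after its value was seen). Of 19 tested promoters of ferroptosis, 2 were higher and 1 lower (1 to 5 and 1 to 2 on leaving out 1 library). CYB5R1, an oxidoreductase (0.79), and BACH1, a repressor of HMOX1 and ferritin genes (0.70), were higher. BACH1 averaged 21.2 ± 5.18 CPM in soft gel and 13.0 ± 1.39 CPM on the rigid dish. Its TPM spread widely in soft gel, at 15.1 ± 15.4.

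Of 11 genes of selenoprotein synthesis, 1 was higher and 3 lower (median log2 fold change -0.26), with 0 to 2 and 0 to 4 on leaving out 1 library. For comparison, 15.4% of all genes tested were higher and 13.2% lower. SEPSECS, which makes selenocysteine on its tRNA, was higher (0.77). EEFSEC, the elongation factor that reads TGA as selenocysteine in codons such as those shown above (-0.57), TRNAU1AP (-0.61) and SEPHS1 (-0.36) were lower. Of 16 other glutathione peroxidases and selenoproteins, 3 were higher and 3 lower (0 to 4 and 0 to 3 on leaving out 1 library). SELENOT (0.55), TXNRD3 (0.60) and the deiodinase DIO2 (0.80, groups overlapping) were higher. MSRB1, a methionine sulfoxide reductase (-0.62), SELENON (-0.55) and SELENOW (-0.54) were lower.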

How the data were processed

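RNA-seq of 6 DBTRG libraries, 3 in soft gel and 3 on a rigid dish, was analysed at the gene level. HISAT2, HTSeq and build hg38 are listed in the submitters' processing notes, without versions or roles. The authors deposited estimated counts and TPM per gene, together with their comparison of the groups, which names DESeq2 and gives a fold (a linear ratio), its log2 value and p-values before and after adjustment. Decimals were present in 11.3% to 12.98% of genes per library. Which tool estimated the counts is not given in the sources.

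Counts were rounded to whole numbers, filtered with filterByExpr (minimum count 10), scaled by TMM and tested in R 4.3.3 by the quasi-likelihood method of edgeR 4.0.16 (with limma 3.58.1). All 16098 genes were tested together, and a gene was called at a Benjamini-Hochberg adjusted p below 0.05. Each fold change is the soft gel level over that of the rigid dish, and SE was taken from the test statistic. Ratios within libraries were compared by exact permutation (scipy 1.17.1). At these depths 3 counts correspond to 0.116 to 0.143 CPM. The fit was tested on simulated data in which 200 genes were changed, and 4.76% of called genes were false. In the data 28.6% of all genes tested were called, so this share cannot be carried over to them.

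The 10 genes and the 8 lists were chosen with earlier results of these data known. All 10 genes are named. From each list, up to 3 called genes per direction with a mean of 5 CPM or more were named. They were those with the largest absolute log2 fold change, so called genes with smaller changes are not named from the lists. Others are said to be named after their values were seen. Some genes that this rule selects are not reported here. The alternatives were upper quartile or DESeq2 scaling, a filter at 1 CPM in 3 libraries or none, the test of DESeq2 (1.42.0), limma on log2(TPM + 1) and on log2(TPM + 0.1), a replicate block, copies added to their parent gene, and leaving out each library. Besides the lists of the results, markers of glial, macrophage, erythroid, hepatocyte, endothelial, and fibroblast and pericyte cells were checked. The summed levels of the last 3 lists were 0.891 to 1.69, 5.68 to 6.78 and 29.9 to 31.5 CPM in soft gel, and 0.672 to 0.948, 6.54 to 8.68 and 45.8 to 49.2 CPM on the rigid dish.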

Additional observations from a re-analysis of the deposited data

How the results depend on the processing

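Of the 10 genes, 4 were called higher with upper quartile or DESeq2 scaling, with the CPM filter or none, with the test of DESeq2 and with copies added, and 3 with limma on either TPM scale, which lost SLC40A1. Over all 16098 genes tested, limma called 1345 on log2(TPM + 1) and 1327 on log2(TPM + 0.1) higher, against 2480 in the main fit. It called 968 and 960 lower, against 2123. The number of the 10 genes called lower was 0 in every alternative run. On leaving out 1 library, 2 to 5 of the 10 were called higher, against 6.13% to 19.6% of all genes tested. The replicate block gave 7, adding FTH1 (adjusted p = 0.0479), ACSL4 (0.00950) and SLC11A2 (0.0363), and called 21.7% of all genes tested higher, against 15.4% without it. The deviations of same-numbered libraries from their group means correlated at 0.22, 0.01 and 0.31 (Pearson, across genes) for numbers 1, 2 and 3. Those of differently numbered libraries ran from -0.30 to 0.14, the highest being soft gel 2 with rigid dish 1. The labels do not say that the numbers mark pairs, and the main fit took none. Whether same-numbered libraries belong together was not tested. The sign of GPX1 and GPX4, neither called, reversed on the TPM scales (0.070 and 0.063 with either pseudocount). On leaving out 1 library their log2 fold changes ran from -0.20 to 0.015 and from -0.23 to 0.091. List genes called higher numbered 22, against 13 and 13 with limma on the TPM scales, 35 with the replicate block and 5 to 29 on leaving out 1 library. Those called lower numbered 20, against 8 and 8, 31, and 3 to 37. Calls over all genes tested were likewise fewer with limma, and more with the replicate block (18.3% lower, against 13.2% without it). The cause of these shifts was not tested. Of the 36 list genes that the naming rule selects, 7 kept their call under all alternatives and 29 lost it in 1 or more, with 0 reversals. The log2 difference between the groups ran from -0.45 to -0.25 for FTH1 to FTL, from 0.13 to 0.88 for TFRC to ferritin and from 0.38 to 0.65 for the share of counts on leaving out 1 library. At most 165 counts per library lay behind each value of GPX3 and SLC40A1, which limits their precision.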
